A study of Homo sapiens with 16 samples.

Results

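H1 human embryonic stem cells, an established pluripotent line, were grown for 24 h in E7, the defined E8 medium without its TGFb, with or without 3 mM 2-deoxy-D-glucose (2DG) and with or without 100 ng/mL NODAL. The 4 groups were E7, E7+2DG, E7+NODAL and E7+NODAL+2DG, with 2 libraries each, 8 of the 16 libraries of the series. All cells were wild type and had been maintained in E8, so every group had been exposed to TGFb before the switch, and every group kept the FGF2 and insulin of the medium. The other groups, used here only beside these, held 1.74 ng/mL TGFb or 100 ng/mL Activin A in place of NODAL, again with and without 2DG. The labels do not say whether the 2 libraries of a group came from separate cultures, so p-values measure only the spread between these samples, which may be technical. The quantity described here is an interaction: the log2 response to 2DG in E7+NODAL less the log2 response to 2DG in E7, for every gene. A negative term means a smaller rise, or a larger fall, with NODAL present, and the members are all 16269 genes tested of the 17738 in the table.

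2DG is a glucose analogue that is phosphorylated by hexokinase and then blocks glycolysis. It also resembles mannose, so it disturbs the building of N-linked sugar chains and loads the endoplasmic reticulum (ER) with unfolded protein. Cells answer with the unfolded protein response, with the ATF4 programme of amino acid synthesis and transport, and, because phosphorylated sugar accumulates, with the MondoA targets TXNIP and ARRDC4. NODAL is a TGFb family ligand that signals through Activin receptors, the co-receptor TDGF1 and SMAD2/3. In human stem cells this signal holds up NANOG and, at high levels, turns on mesendoderm genes, while LEFTY1 and LEFTY2 are its secreted inhibitors.

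Library depth ran from 14600479 to 17407357 recovered reads in the 8 libraries, and mitochondrial transcripts took 5.53% to 6.69% of them. Pluripotency markers matched the label: the 7 markers together held 0.806% to 0.860% of the normalised reads in the 4 groups, and POU5F1 stood at 31406 to 48152. Fibroblast markers summed to 3604 to 5357 normalised reads over 6 listed of 10, with COL3A1, LUM, DCN and POSTN having no row here. Trophoblast markers summed to 73.5 to 156 over 3 of 8, definitive endoderm markers to 18.2 to 51.8 over 2 of 6, neural crest markers to 641 to 781 over 2 of 5 and neuron markers to 3113 to 4114 over 6 of 6. Endothelial and blood markers, of which only KDR and TEK had a row out of 7, summed to 1324 to 1642 in E7, 2522 to 2729 in E7+2DG, 1778 to 1911 in E7+NODAL and 2336 to 2493 in E7+NODAL+2DG, so this sum was higher with 2DG in both media. PECAM1, CDH5 and PTPRC were among those with no row here, and KDR had a called interaction term of -0.45. The part of these markers in the results was not tested. Replicates of E7 were the least alike of the 4 groups, with a chi-square per degree of freedom of 9.53 between their recovered reads, against 5.03 in E7+2DG, 3.27 in E7+NODAL and 1.92 in E7+NODAL+2DG. In bulk RNA, fewer cells of a type and less RNA per cell cannot be told apart.

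3 promoter windows are printed here because they carry elements of the pathways that the results turn on: glucose sensing, amino acid starvation and ER stress. Each runs from 250 bases before to 50 bases after the RefSeq gene start (GRCh38.p14), 5′ to 3′ on the gene's strand, and capitals mark a match to 1 of 3 motifs searched on both strands. TXNIP (minus strand, chr1:145996530-145996829) held a carbohydrate response element, searched as CACGNG, any 5 bases and CACGNG again, that began 88 bases before the start, at position -88.
TXNIP: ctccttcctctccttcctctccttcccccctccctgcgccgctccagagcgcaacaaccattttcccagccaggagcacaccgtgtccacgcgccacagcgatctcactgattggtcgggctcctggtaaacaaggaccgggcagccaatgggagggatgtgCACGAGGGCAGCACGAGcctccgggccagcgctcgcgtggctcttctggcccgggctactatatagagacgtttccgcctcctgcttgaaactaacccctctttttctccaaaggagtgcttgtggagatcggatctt
ASNS (minus strand, chr7:97872359-97872658) held the amino acid response element TGATGNAA at position -68.
ASNS: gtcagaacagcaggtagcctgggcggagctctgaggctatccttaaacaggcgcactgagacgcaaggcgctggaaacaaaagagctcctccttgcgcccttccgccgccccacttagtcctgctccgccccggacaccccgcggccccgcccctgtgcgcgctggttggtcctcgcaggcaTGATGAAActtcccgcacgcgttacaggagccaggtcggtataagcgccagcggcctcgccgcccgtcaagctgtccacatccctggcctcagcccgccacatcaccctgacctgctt
HSPA5 (minus strand, chr9:125241294-125241593) held the ER stress response element, searched as CCAAT, any 9 bases and CCACG, at position -66.
HSPA5: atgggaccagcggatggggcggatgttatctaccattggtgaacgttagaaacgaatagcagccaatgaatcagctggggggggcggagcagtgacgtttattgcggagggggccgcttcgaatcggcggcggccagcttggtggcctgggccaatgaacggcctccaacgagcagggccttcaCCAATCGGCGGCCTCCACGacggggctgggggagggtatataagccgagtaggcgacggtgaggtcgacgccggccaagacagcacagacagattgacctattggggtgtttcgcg
Over all 27305 promoters in the table, 0.0732% held the carbohydrate element, 3.67% the amino acid element and 0.0806% the ER stress element. Over the 10959 promoters of tested genes the shares were 0.137%, 1.54% and 0.128%. The amino acid element was found in 4 of 22 promoters of the ATF4 list (ASNS, ATF3, CHAC1 and SLC3A2), and the ER stress element in 6 of 25 of the unfolded protein response list. The window of DDIT4, the gene of these pathways with the largest term, held none of the 3. A match is a description of letters, and the 3 genes printed had 3 different terms: -1.27 for TXNIP, 0.13 for ASNS and 0.30 for HSPA5.

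With NODAL in the medium the response to 2DG was different for 3939 of 16269 genes (24.2%), 1917 with a higher term (11.8%) and 2022 with a lower one (12.4%), by limma at an adjusted p under 0.05. Of the 1917 genes with a higher term, 1858 had a negative response in E7: in E7+NODAL that response was positive for 1323 and still negative but nearer 0 for 535. Of the 2022 with a lower term, 1956 had a positive response in E7, which was negative in E7+NODAL for 1393 and still positive but nearer 0 for 563. These are signs of the fitted values, whether or not either response was called. The E7 libraries enter both the term and that response, so these counts are partly set by the arithmetic. The response to 2DG was called in E7 alone for 2831 of the 3939 genes, in E7+NODAL alone for 425, in both for 442 and in neither for 241. Taken separately, 2DG changed 6975 genes in E7 (42.9%; 21.6% higher and 21.3% lower) and 2555 in E7+NODAL (15.7%; 8.03% higher and 7.68% lower). These 2 responses use no library in common: 1336 genes were called in the same direction in both, 19.2% of the E7 calls and 52.3% of the E7+NODAL calls, and 236 in opposite directions. Across genes, which are not independent replicates, the 2 responses had a Pearson r of 0.41 over 16269 genes.

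The number of calls depended on the fit. With 1 spread for all 16 libraries, which brings in the dissimilar Activin A replicates, 313 genes were called. Without the trend of variance on expression level, limma called 0 genes, although 5347 had p under 0.05 before adjustment and 3643 an adjusted p under 0.1, down to 0.0565. On the recovered reads, edgeR called 4022 genes and DESeq2 3378. Scaling the libraries to the same total left 4010 calls but moved the median term to -0.09, so that 1421 were higher and 2589 lower.

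**Figure D1:**
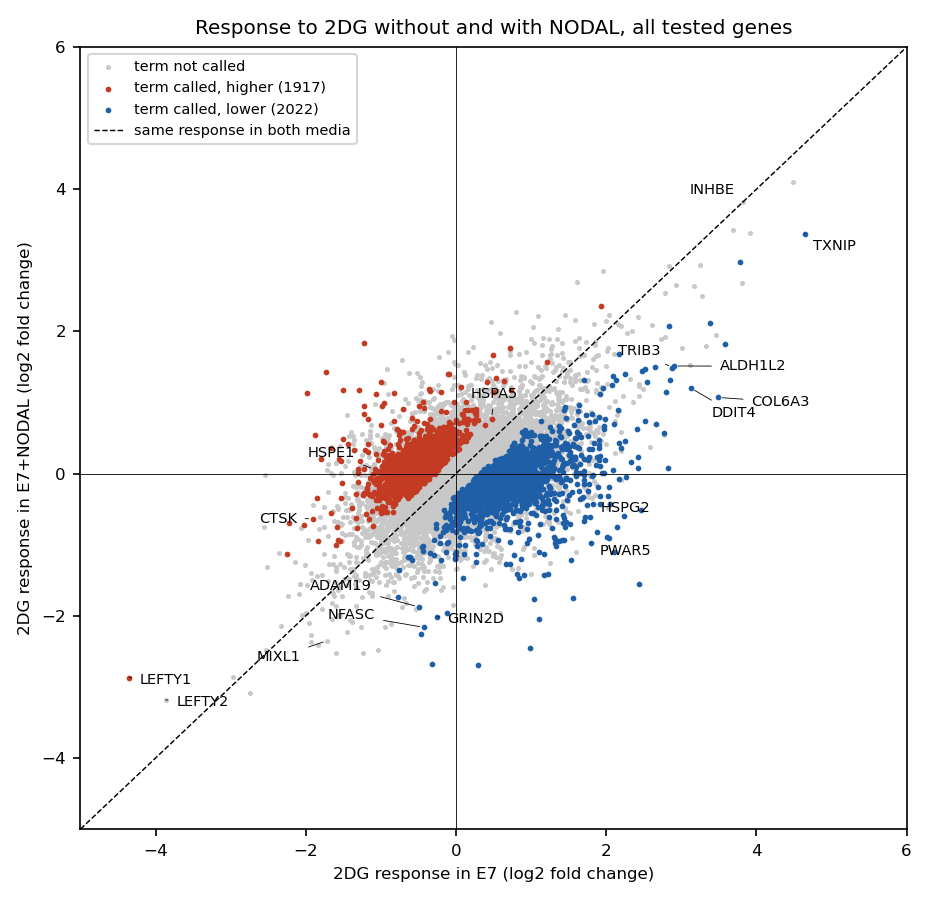
Each point is 1 of the 16269 tested genes, with its log2 response to 2DG in E7 on the x axis and in E7+NODAL on the y axis. Red and blue points are the 1917 and 2022 genes with a higher and a lower interaction term, and the dashed line marks equal responses. TXNIP, DDIT4, TRIB3 and ALDH1L2 lie to the right of the line, LEFTY1 lies above it at the lower left, and INHBE lies on it.

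The term followed transcript length. Over 5 equal groups of genes from the shortest to the longest exons, its median was 0.32, 0.19, 0.01, -0.13 and -0.35, and the share called lower went from 2.29% to 34.2%. The Spearman correlation of the term with length over 15904 genes was -0.40, and those of the 2 responses were 0.33 in E7 and -0.11 in E7+NODAL. Length trends of the single libraries also differed within a group, with correlations of -0.18 and -0.38 in the E7 libraries, 0.26 and 0.11 in E7+2DG, -0.09 and 0.05 in E7+NODAL, and -0.17 and -0.16 in E7+NODAL+2DG. With the length trend removed from each library, an alternative chosen after seeing the data, 3510 genes were called (22.1% of 15904, 12.2% higher and 9.83% lower), 2601 of them also in the unadjusted fit. Counts with the trend removed are therefore given with the gene groups below. Each count by list can be set beside the shares over all genes, 11.8% higher and 12.4% lower, or 12.2% and 9.83% with the trend removed.

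**Figure D2:**
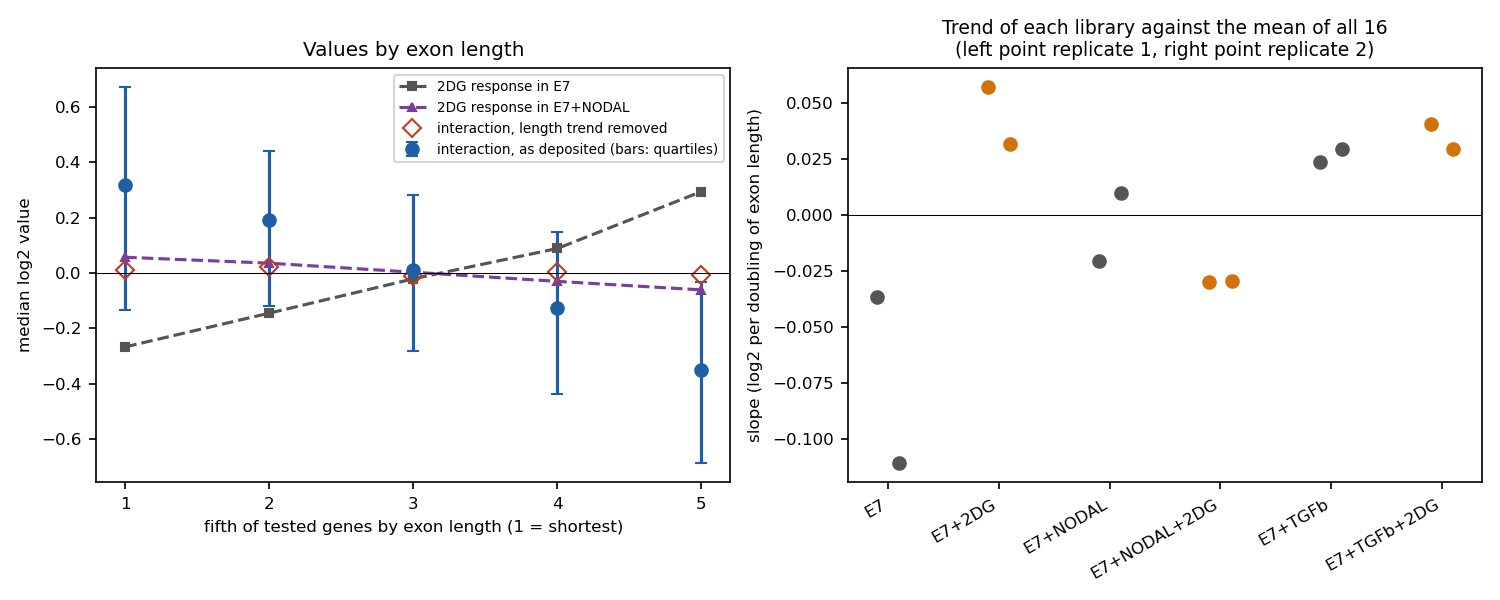
Left, median log2 values over 5 equal groups of genes by exon length: the interaction with its quartiles, the 2 responses that make it, and the interaction after the length trend is removed, which lies near 0 in every group. Right, slope of each library outside the Activin A groups against the mean of all 16 libraries, in log2 per doubling of exon length, 2 points a group. The lowest point shown is E7 replicate 2 (-0.11), and E7+ActivinA replicate 1, not shown, was at -0.12.

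Among genes that answer sugar and amino acid stress, the rise under 2DG was smaller with NODAL for part of the ATF4 list and for TXNIP and its paralogue. Of the 28 tested genes of the ATF4 list, 27 rose in E7 and 28 in E7+NODAL (21.6% and 8.03% of all genes), with median responses of 1.84 and 1.40. The interaction was lower for 8 of the 28 and higher for 1 (12.4% and 11.8% of all genes), with a median of -0.24 against -0.00 over all genes. With the length trend removed, 12 were lower and 0 higher (9.83% and 12.2% of all genes).

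DDIT4 (chr10:72273920-72276036), a brake on mTORC1 that rises in energy and ER stress, held 101 and 122 normalised reads in E7 and 934 and 1020 in E7+2DG. With NODAL it held 278 and 183, and with NODAL and 2DG 558 and 483. The NODAL libraries were thus above the E7 libraries without 2DG and below them with it, with no overlap in either comparison. Its log2 response was 3.13 in E7 and 1.20 in E7+NODAL, a term of -1.93 ± 0.24 (SE; limma adjusted p = 0.000729).

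TXNIP (chr1:145992435-145996600) encodes an arrestin-like protein that restrains glucose uptake and is the classical readout of MondoA. It stood at 51.7 and 83.2 in E7, 1610 and 1720 in E7+2DG, 97.2 and 94.2 in E7+NODAL, and 992 and 1012 in E7+NODAL+2DG. Both NODAL libraries with 2DG were below both E7 libraries with 2DG. The term was -1.27 ± 0.24 (SE; limma adjusted p = 0.00233), from responses of 4.64 and 3.37. ARRDC4, its paralogue with the same regulator, rose from 45.0 and 53.8 to 678 and 704 in E7 and from 42.3 and 47.1 to 342 and 375 in E7+NODAL. Its term of -0.81 was called (limma adjusted p = 0.0131), but not without E7+NODAL replicate 2 (-0.73) or without E7+NODAL+2DG replicate 1 (-0.74).

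MLXIP, the gene of MondoA itself, stood at 1496 and 1651 in E7+NODAL and between 823 and 1028 in the other 6 libraries. Its term of -0.71 was called, and with the length trend removed it was -0.25 (limma adjusted p = 0.0955). In the list of 7 glucose sensing genes, these 3 were lower and 0 higher. The length-corrected fit also called 3 lower and 0 higher, with KLF10 (-0.54) in place of MLXIP.

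TRIB3 (chr20:362835-397559), a pseudokinase induced by ATF4 and DDIT3 that restrains both ATF4 and AKT, rose from 114 and 127 to 778 and 1024 in E7. With NODAL it rose from 161 and 149 to 448 and 425, which makes a term of -1.39 ± 0.19 (SE; limma adjusted p = 0.000958). ALDH1L2, the mitochondrial formyltetrahydrofolate dehydrogenase, had the same term of -1.39, with 1637 and 1322 reads in E7+2DG and 888 and 897 in E7+NODAL+2DG. The other lower members were the glycine transporter SLC6A9 (-1.03), the lipoprotein receptor VLDLR (-0.85), the mTORC1 inhibitor SESN2 (-0.75), the alanine transaminase GPT2 (-0.55) and the secreted glycoprotein STC2 (-0.49). STC2 lost its call when any of 4 libraries was left out, with terms from -0.50 to -0.39.

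Other members of the same list, among them enzymes, were not called. Asparagine synthetase, ASNS, stood at 4088 and 4284 in E7, 13346 and 14330 in E7+2DG, 3372 and 3284 in E7+NODAL, and 11832 and 12157 in E7+NODAL+2DG. Its responses were 1.72 and 1.85, a term of 0.13 ± 0.10 (SE; limma adjusted p = 0.382). The serine synthesis enzyme PSAT1 had a term of 0.06, the glutathione-degrading CHAC1 -0.24 and the secreted subunit INHBE -0.01, with adjusted p-values of 0.72, 0.336 and 0.977 by limma. CHAC1 was called with the length trend removed (-0.52, adjusted p = 0.0133), and PSAT1 with the length and GC trends removed (-0.34, adjusted p = 0.0101). INHBE itself was lower with NODAL throughout, at 62.3 and 67.9 against 120 and 118 without 2DG and at 969 and 892 against 1672 and 1720 with it. DDIT3, the pro-apoptotic factor CHOP, was lower too, at 13.7 and 21.7 against 32.6 and 44.7, and at 145 and 132 against 321 and 428, while its term of -0.32 was not called (limma adjusted p = 0.544). ATF3, with a term of -0.49, missed the threshold (limma adjusted p = 0.0632) and passed it with the length trend removed (-0.57, adjusted p = 0.0209). ATF4, whose protein is controlled mainly by translation, was the single higher member, at 0.46.

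**Figure D3:**
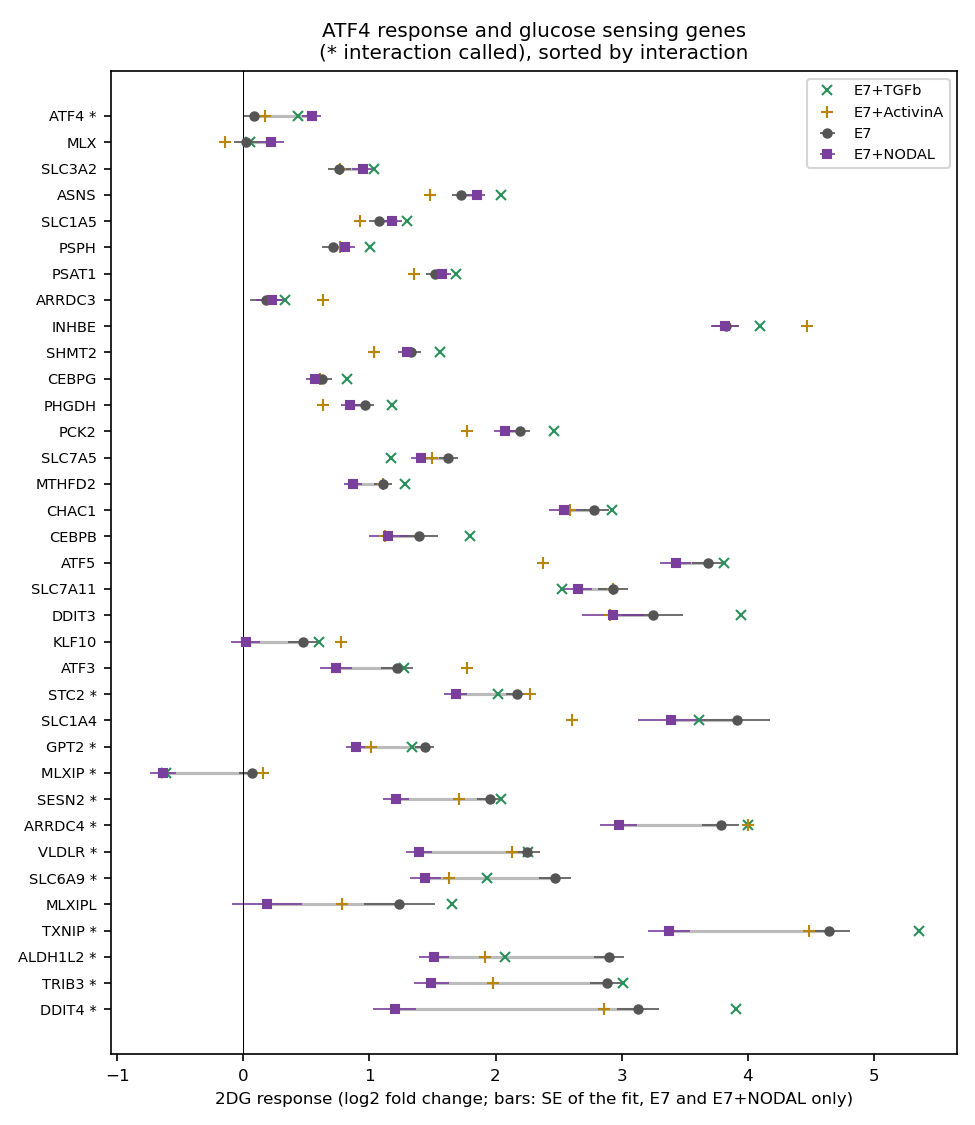
Log2 response to 2DG of the ATF4 and glucose sensing genes in E7 (circles) and E7+NODAL (squares), with the SE of the fit, and in E7+TGFb and E7+ActivinA as crosses without error bars; asterisks mark called interaction terms. The gap is widest for DDIT4 and closes toward ASNS, PSAT1 and INHBE.

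LEFTY1, LEFTY2 and NODAL itself fell under 2DG in both media, and their levels were higher with NODAL in the medium, both without and with 2DG. LEFTY1 (chr1:225886282-225911382) stood at 463 and 613 in E7 and at 20.9 and 30.4 in E7+2DG. With NODAL it stood at 1749 and 1691, and at 237 and 232 with 2DG added. Its fall was 4.35 on the log2 scale in E7 and 2.87 in E7+NODAL (responses of -4.35 and -2.87), a term of 1.48 ± 0.24 (SE; limma adjusted p = 0.00127), the largest positive one among the genes named by rule with a group mean of at least 100. LEFTY2, its close paralogue, stood at 148 and 114, then 4.74 and 13 with 2DG, and at 535 and 442 with NODAL, then 50.8 and 54.4. The term of LEFTY2 was 0.68 ± 0.45 (SE) and was not called (limma adjusted p = 0.297). The 2 genes are similar in sequence, so how the authors' counting split their reads is uncertain.

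NODAL (chr10:70432315-70447951), which drives its own transcription, fell from 765 and 825 to 244 and 291 in E7 and from 1106 and 1093 to 581 and 574 in E7+NODAL. The added ligand is protein, so these reads come from the cells' own gene. Its term of 0.64 was called (limma adjusted p = 0.00644) and was 0.33 with the length trend removed (adjusted p = 0.0679). The TGFb family ligand GDF3 (0.54) and the Activin antagonist FST (0.65) were called, and neither was with the length trend removed (0.20 and 0.46). FST did not fall: its response to 2DG was 0.11 in E7, not called, and 0.76 in E7+NODAL, and it stood lower with NODAL than in plain E7. GDF3 fell in both media and its level without 2DG differed by -0.03 between E7+NODAL and E7. Both calls also rested on single libraries: GDF3 was lost without E7+2DG replicate 1 (0.43), E7+NODAL replicate 2 (0.47) or E7+NODAL+2DG replicate 2 (0.49), and FST in 7 of the 8 cases, with terms from 0.57 to 0.73.

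Of the 17 tested genes in the list of NODAL and Activin targets, 5 were higher and 1 (FURIN) lower, and 2 and 1 with the length trend removed. Over all genes 11.8% were higher and 12.4% lower. Under 2DG 10 of the 17 fell in E7 (21.3% of all genes), and 10 fell and 1 rose in E7+NODAL (7.68% and 8.03%). Of 23 machinery genes (ligands, receptors and SMAD partners), 1 had a higher term (DRAP1) and 5 a lower one, namely ACVR2B, SKI, FOXH1, FURIN and ACVR1B, and 1 and 4 with the length trend removed. In this list 8 rose and 3 fell under 2DG in E7 (21.6% and 21.3% of all genes), and 3 rose and 4 fell in E7+NODAL (8.03% and 7.68%). The co-receptor TDGF1 had a term of 0.03 with 9296 to 12699 reads in all 8 libraries.

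Mesendoderm genes gave no called term among 11 tested, and 1 lower (MIXL1) with the length trend removed. MIXL1, an early NODAL target of the primitive streak, stood at 147 and 168 in E7, 50.3 and 44.6 in E7+2DG, 486 and 522 in E7+NODAL, and 108 and 89.0 in E7+NODAL+2DG. NODAL thus raised it without 2DG by 1.67 on the log2 scale and the level with both additives lay below that in plain E7. Its term of -0.64 missed the threshold (limma adjusted p = 0.0526) and passed it with the length trend removed (-0.92, adjusted p = 0.0067). FGF8 had a term of 0.53 (limma adjusted p = 0.147), and EOMES, at 3.26 to 15.8 reads, one of 0.33 (limma adjusted p = 0.764).

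**Figure D4:**
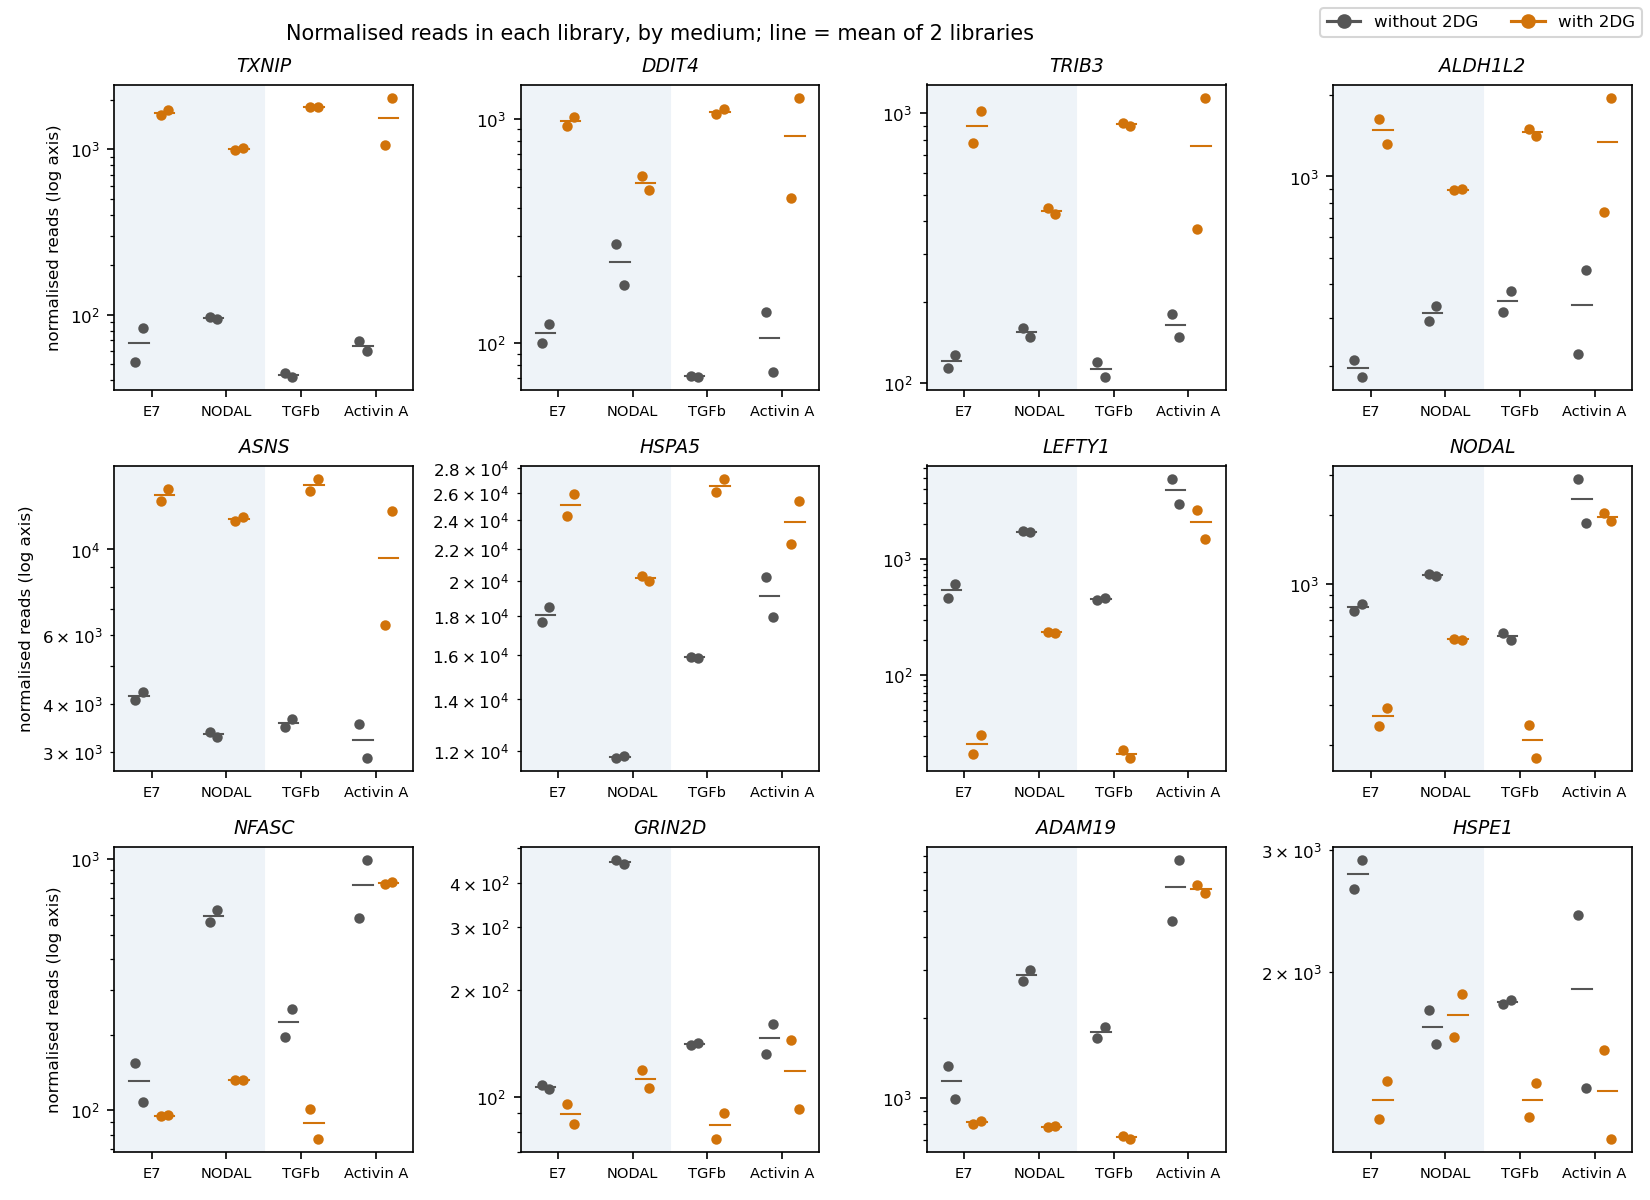
Normalised reads (log axis) of 12 genes in each library, without 2DG in grey and with 2DG in orange, by medium; the shaded part holds the 8 libraries of the interaction and lines are means of 2 libraries. With 2DG, TXNIP, DDIT4, TRIB3 and ALDH1L2 are lower in NODAL than in E7, and LEFTY1 and NODAL are higher.

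In another set of genes the rise that came with NODAL was smaller in the presence of 2DG. These 6 genes were chosen after their values were seen, so they are a description. GRIN2D (chr19:48394875-48444931), an NMDA receptor subunit, stood at 108 and 106 in E7, 95.8 and 83.7 in E7+2DG, 462 and 450 in E7+NODAL, and 119 and 106 in E7+NODAL+2DG. The 2 libraries of E7+NODAL stood apart from the other 6, which lay between 83.7 and 119. Its term was -1.76 ± 0.20 (SE). The adhesion molecule NFASC (chr1:204828651-205022822) held 154 and 108, then 94.9 and 95.7 with 2DG, and 563 and 625 with NODAL, then 132 and 132 with both (term -1.73, and -1.13 with the length trend removed).

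ADAM19 (chr5:157395534-157575775), a membrane protease, held 1322 and 996, 802 and 824, 2749 and 3023, and 782 and 788 in the same order, with a term of -1.38. NEURL1B, a ubiquitin ligase for Notch ligands, had a term of -1.18, the microtubule linker CLIP2 -1.11 and BTNL9 -1.83. All 6 were called with the length trend removed. The call of BTNL9, at 8.12 to 87.7 reads, was lost when any 1 of 6 libraries was left out, with terms from -2.0 to -1.30. For ADAM19 and NFASC the libraries with and without 2DG overlapped in Activin A medium. ADAM19 stood at 4571 and 7720 without and 6265 and 5854 with 2DG, and NFASC at 582 and 986 without and 791 and 808 with it. GRIN2D was at 92.4 to 160 in those 4 libraries.

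The unfolded protein response rose in both media, with 15 of 28 genes called higher in E7 (21.6% of all genes were) and 21 of 28 in E7+NODAL (8.03% of all genes). Its interaction terms went both ways: 9 higher and 6 lower (11.8% and 12.4% over all genes), and 7 and 3 with the length trend removed. The 9 higher members were the translocon subunit SEC61B (0.85), SDF2L1 (0.77), DNAJB9 (0.75), MANF (0.73), the degradation factor DERL2 (0.71), DNAJB11 (0.59) and the chaperones CALR (0.41), HSP90B1 (0.32) and HSPA5. Members that were lower were HYOU1, the degradation components SEL1L, SYVN1 and EDEM1, the sensor ATF6 and WFS1, with terms from -0.50 to -0.41. MANF, a secreted ER stress protein, stood at 1669 and 1816 in E7, 1747 and 1986 in E7+2DG, 1299 and 1116 in E7+NODAL, and 2206 and 2073 in E7+NODAL+2DG. Its 2 libraries with NODAL alone were the lowest and those with both additives the highest.

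HSPA5 (chr9:125234853-125241330), the ER chaperone BiP, stood at 17642 and 18451 in E7, 24248 and 25888 in E7+2DG, 11765 and 11802 in E7+NODAL, and 20272 and 19992 in E7+NODAL+2DG. NODAL libraries were lower both without and with 2DG, and the gap was smaller with it. The term of 0.30 was called (limma adjusted p = 0.0355), was 0.20 with the length trend removed (adjusted p = 0.0843) and was -0.04 after quantile normalisation. Leaving out any of 6 of the libraries ended the call, with terms from 0.25 to 0.31. SDF2L1 lost its call with the length trend removed (0.43) and in 4 cases with 1 library left out, and DNAJB9 without E7+NODAL+2DG replicate 2 (0.62).

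Nuclear genes of the respiratory chain fell under 2DG in E7, and few were called in E7+NODAL. Of 35 tested, 28 fell and 0 rose in E7 (21.3% and 21.6% of all genes), with a median response of -0.50. In E7+NODAL 1 fell and 3 rose (7.68% and 8.03% of all genes), with a median of 0.15. Without 2DG, 28 of the 35 were lower with NODAL than in E7 and 1 higher, against 2909 and 2860 of all 16269 genes. With 2DG in both media, 0 were lower with NODAL and 4 higher. The interaction was higher for 27 of 35 and lower for 0 (11.8% of all genes were higher), with a median of 0.66. These are short transcripts, with a median exon length of 2711 against 4648 bases over the genes tested, and with the length trend removed 22 of 31 were higher, 0 lower, and the median was 0.57. NDUFA2, a complex I subunit, held 627 and 755 reads in E7 and 366 and 382 in E7+2DG, against 518 and 366 in E7+NODAL and 511 and 488 in E7+NODAL+2DG. The values without 2DG were thus lower with NODAL, and the term was 1.08. NDUFB3 had a term of 1.02 and the ATP synthase subunit ATP5O 0.96.

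Among 25 genes of the tricarboxylic acid cycle and its entry, 10 were higher and 1 lower (11.8% and 12.4% of all genes). SDHB (0.83) and MDH1 (0.72) led, with OGDH (-0.66) the exception. With the length trend removed 9 were higher and 2 lower. The 13 mitochondrially encoded genes did not follow the nuclear subunits: 1 was higher (MT-ND3, 0.44) and 3 lower (MT-ND4L, MT-ND5 and MT-ND4), and with the length trend removed 10 were lower and 0 higher. These are the shortest group, with a median of 784 bases, at the edge of the length curve.

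Chaperone genes of the cytosol and mitochondria gave a similar split. Of 14 heat shock genes, 11 fell and 1 rose in E7 (21.3% and 21.6% of all genes). In E7+NODAL 2 fell and 3 rose (7.68% and 8.03% of all genes). The interaction was higher for 8 and lower for 0 (11.8% and 12.4% of all genes), also with the length trend removed. Without 2DG, 9 of the 14 were lower with NODAL than in E7 and 0 higher, against 2909 and 2860 of all 16269 genes. With 2DG 1 was lower and 4 higher, against 1185 and 787 of all genes. HSPE1, the mitochondrial co-chaperonin, stood at 2641 and 2901 in E7 and 1225 and 1393 in E7+2DG, and at 1761 and 1573 in E7+NODAL and 1614 and 1859 in E7+NODAL+2DG. Its term was 1.14 ± 0.14 (SE; limma adjusted p = 0.000708). HSPA8, the constitutive cytosolic HSP70, had a term of 0.82 and DNAJA1, one of its co-chaperones, 0.81.

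Higher terms also outnumbered lower ones in 3 lists of growth and synthesis, where 11.8% of all genes were higher and 12.4% lower. Of 20 ribosome biogenesis genes 11 were higher and 1 (POLR1A) lower, and 10 and 0 with the length trend removed. NOP16 (0.96) and the nucleolar GTPase GNL3 (0.72) led. GNL3 stood at 5629 and 6097 in E7, and between 3611 and 3850 in the other 6 libraries, so that either 2DG or NODAL was accompanied by the lower level. Of 23 cholesterol synthesis genes 13 were higher and 2 lower, and 11 and 1 with the length trend removed. IDI1, which makes the allylic isoprenoid precursor, stood at 2889 and 3388 in E7, 1488 and 1625 in E7+2DG, 2270 and 2131 in E7+NODAL, and 2030 and 2105 in E7+NODAL+2DG. Its term was 0.92, with HMGCS1 at 0.68 and FDFT1 at 0.62. Of 20 S phase genes 10 were higher and 0 lower, led by the sliding clamp PCNA (0.76), and 7 and 1 with the length trend removed. Without 2DG, 19 ribosome biogenesis, 10 cholesterol and 12 S phase genes were lower with NODAL than in E7, and 0, 3 and 0 higher. With 2DG in both media, 5, 1 and 1 were lower with NODAL, and 0, 6 and 0 higher. Over all 16269 genes 2909 were lower and 2860 higher with NODAL without 2DG, and 1185 and 787 with it.

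MKI67, a long transcript of the G2 and M phase list and a proliferation marker, had a term of -1.35, whereas CDK1 (0.61), UBE2C (0.57), CCNB1 and CCNA2 in the same list were higher. The list of 20 held 4 higher and 2 lower (11.8% and 12.4% of all genes). With the length trend removed it held 2 and 4 (12.2% and 9.83% of all genes). MKI67 stood at 3703 and 2267 in E7, 6176 and 4817 in E7+2DG, 4100 and 4756 in E7+NODAL, and 3361 and 3182 in E7+NODAL+2DG, so the spread within E7 was wide. Metallothioneins, small metal-binding proteins, were higher for 5 of 6 tested and for 3 with the length trend removed (11.8% and 12.2% of all genes). MT1G fell with NODAL alone from 358 and 445 to 84.5 and 106 and stood at 145 and 168 with both additives, for a term of 1.14. Metallothionein genes are near-copies of each other, and their reads may be shared.

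Matrix and adhesion genes were lower. Of 16 tested, 12 were lower and 0 higher (12.4% of all genes were lower), with a median term of -0.59. Their median exon length was 7055 bases, and with the length trend removed 9 were lower, 0 higher, and the median was -0.38. FN1, fibronectin, rose from 3356 and 2264 to 7577 and 6619 in E7 and stood at 3715 and 4198, then 4764 and 4861, with NODAL. Its term was -1.08, and -0.54 with the length trend removed. ITGA5, the fibronectin receptor subunit, had a term of -1.14, the laminin chain LAMA1 -1.11 and the intermediate filament gene VIM -0.74, or -0.64 and not called without E7+NODAL+2DG replicate 1. VIM stood at 986 and 1096 in E7+2DG and between 492 and 632 in the other 6 libraries. CDH1, the epithelial cadherin, was among the lower members as well, at -0.71, so members of opposite epithelial and mesenchymal roles had the same sign. COL6A3 (chr2:237324003-237414375), a collagen VI chain that is also in the fibroblast list, stood at 43.1 and 15.2 in E7, 308 and 290 in E7+2DG, 71.8 and 82.0 in E7+NODAL, and 163 and 161 in E7+NODAL+2DG, with a term of -2.42. The summed fibroblast markers were lower with 2DG in both media, at 3604 and 3730 against 4307 and 4370 in E7, and at 4211 and 4328 against 5128 and 5357 with NODAL. Their part in the matrix result was not tested.

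The receptors NOTCH2 (-1.07), NOTCH1 (-1.04) and NOTCH3 (-0.93) and the ligand JAG1 (-0.67) were lower, 4 of 13 Notch genes, with 0 higher (12.4% and 11.8% of all genes). With the length trend removed 6 were lower and the 3 receptors stood at -0.54, -0.71 and -0.65.

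Several core pluripotency genes were lower with 2DG in E7 and not, or less so, with NODAL. In the list of 20, 7 fell and 6 rose under 2DG in E7 (21.3% and 21.6% of all genes). In E7+NODAL 3 fell and 5 rose (7.68% and 8.03% of all genes), so fewer falls were called there over all genes too. Without 2DG, 7 were lower with NODAL than in E7 and 1 higher, against 2909 and 2860 of all 16269 genes. POU5F1 stood at 42332 and 48152 in E7, 31406 and 34142 in E7+2DG, 41802 and 35023 in E7+NODAL, and 42990 and 40972 in E7+NODAL+2DG, a term of 0.60 (limma adjusted p = 0.00581), or 0.20 and not called after quantile normalisation. NANOG stood at 5112 and 5499, 3700 and 3954, 4920 and 4748, and 4681 and 4727, a term of 0.43 (limma adjusted p = 0.0078), not called without E7+NODAL replicate 2 (0.41). L1TD1, an RNA-binding protein of human stem cells, stood at 24466 and 23342 in E7 and at 17765 and 15039 in E7+2DG. With NODAL it stood at 15623 and 15797, and at 18697 and 18647 with 2DG added, a term of 0.80. Without 2DG it was thus lower with NODAL than in E7, a log2 difference of -0.61. SOX2 stayed between 4142 and 5352 in all 8 libraries, with a term of 0.05 (limma adjusted p = 0.774) whose sign turned in several settings. Over the list of 20, 7 terms were higher and 2 (TERT and SALL4) lower (11.8% and 12.4% of all genes), and 4 and 2 with the length trend removed. The median term of the list was 0.15, and -0.04 with the length trend removed.

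**Figure D5:**
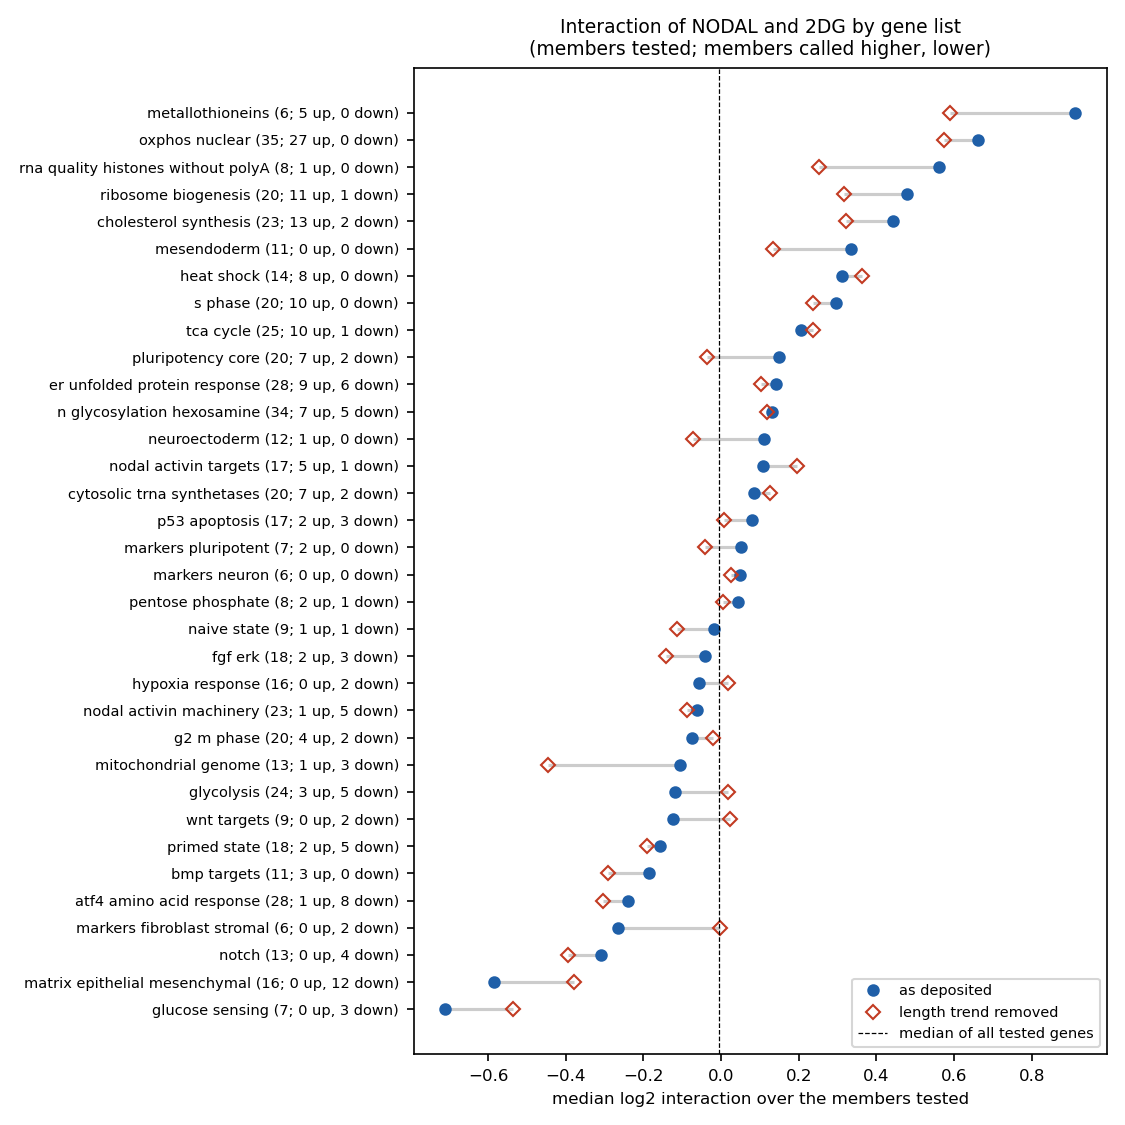
Median log2 interaction of each gene list with at least 5 members tested, as deposited (circles) and with the length trend removed (diamonds); each label gives the members tested and those called higher and lower. Metallothioneins and respiratory chain genes lie farthest right, and glucose sensing and matrix genes farthest left.

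The median terms by list were also taken without 1 of the dissimilar E7 replicates, and the counts in the wider fit. Without E7 replicate 1 and without E7 replicate 2, the median was 0.81 and 0.56 for respiratory chain genes and 0.39 and 0.31 for heat shock genes. In the same order it was 0.51 and 0.34 for cholesterol genes and 0.53 and 0.39 for ribosome biogenesis genes. For matrix genes it was -0.68 and -0.41, and for the ATF4 list -0.15 and -0.29. Over all genes it was -0.00 in each. List counts of these fits are left out, because E7 then has 1 library and adds nothing to the measured spread. With all 16 libraries in 1 fit the medians hardly moved, but 313 of all 16714 genes were called. The calls were 0 for the respiratory chain and the ATF4 list, 3 higher for heat shock and 1 higher for cholesterol synthesis. Ribosome biogenesis had 4 higher and the matrix list 1 lower.

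Of glycolysis genes, whose pathway 2DG blocks, 3 of 24 were higher and 5 lower, against 11.8% and 12.4% of all genes, and 5 and 5 were with the length trend removed. The lower ones included HK2 (-0.40), the target of the drug, and the regulatory enzyme PFKFB4 (-0.79). H6PD, the ER-resident enzyme that oxidises glucose 6-phosphate, stood at 358 and 361 in E7+NODAL and between 118 and 191 in the other 6 libraries, for a term of -1.20. LDHB was the largest higher member, at 0.79. In the N-glycosylation and hexosamine list, 7 of 34 were higher and 5 lower (7 and 3 with the length trend removed), led by the dolichol-phosphate mannose synthase subunits DPM1 (1.00) and DPM3 (0.86) on one side and GFPT1 (-0.78), the first enzyme of the hexosamine pathway, on the other. The BMP targets ID1 (0.84), ID3 (0.85) and ID2 (0.60) were higher, 3 of 11, with 0 lower, and 2 and 0 with the length trend removed. In the FGF list of 18 DUSP6 (0.60) and IER3 (0.89) were higher, and SPRED2, PHLDA1 and SPRY4 lower, and 3 and 3 were called with the length trend removed. With the length trend removed, DPM3 (0.52), ID2 (0.33), UBE2C (0.23), POLR1A (-0.31), ACVR2B (-0.22) and DRAP1 (0.30) were not called.

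The 11 genes reported for their large lower terms under the naming rule include 10 whose 2 libraries in E7 differed by over 1.5 times; DDIT4 was the exception. PWAR5, a noncoding RNA of the Prader-Willi region, had the largest term, -2.77, with 371 and 192 in E7, 1509 and 575 in E7+2DG, 330 and 400 in E7+NODAL, and 193 and 177 in E7+NODAL+2DG. HSPG2, perlecan, had a term of -2.24 with 399 and 202 in E7 and 1182 and 1349 in E7+NODAL. The 12 largest higher terms, besides LEFTY1, include the mitochondrial import factor TIMM8B (1.18), the mitochondrial ribosomal protein MRPL12 (1.29) and the pseudogenes SNRPGP10 and RPL21P16, whose reads may come from their parent genes.

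A second comparison leaves out the E7 libraries: the response to 2DG in E7+NODAL less that in E7+TGFb. It shares the NODAL libraries with the first, so the values stand side by side and are not added up. Of 16248 genes, 1903 were called (11.7%), 1006 higher (6.19%) and 897 lower (5.52%), 0 with all 16 libraries in 1 fit (1217 at an unadjusted p under 0.05), 1993 by edgeR and 1067 by DESeq2. DDIT4 differed by -2.70, TXNIP by -1.98, TRIB3 by -1.52 and COL6A3 by -1.78, and LEFTY1 by 1.5. TXNIP went from 44.1 and 42.2 to 1802 and 1804 in TGFb medium. In the ATF4 list 18 of 28 were lower and 1 higher, and in the respiratory chain list 12 of 35 were higher and 0 lower. For other genes the difference from TGFb was near 0: 0.00 for ZNF483, -0.09 for IGSF9B, -0.11 for FN1, -0.16 for LAMA1, -0.17 for MKI67 and -0.19 for HSPG2, against interaction terms of -1.87, -2.23, -1.08, -1.11, -1.35 and -2.24. HSPA5 differed by 0.03 and NODAL by 0.58.

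Against Activin A, 0 of 16288 genes were called (0%) by limma. Before adjustment 1005 had p under 0.05, and the lowest adjusted p was 0.196. edgeR called 0 and DESeq2 25. The 2 libraries of E7+ActivinA had a chi-square per degree of freedom of 50.3, and without its replicate 2 the count was 3551, so this comparison rests on which library is used. TXNIP differed by -1.11, DDIT4 by -1.66 ± 0.64, LEFTY1 by -1.93 ± 0.39 and NFASC by -2.24 ± 0.31 (SE), with no call. These genes were picked for description. In the ATF4 list the median difference was -0.04, with 13 of 28 positive, against -0.01 over all genes. In the respiratory chain list it was 0.44, with 35 of 35 positive. LEFTY1 in that medium stood at 4829 and 2993 without 2DG and at 2643 and 1484 with it, above every NODAL library with the same 2DG treatment.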

How the data were processed

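RNA from H1 cells was poly(A)-selected and sequenced in read pairs on a NextSeq 500, per the labels' protocols. Tools listed in the submitters' processing notes are STAR (build hg38), featureCounts 1.5.3, Trimmomatic 0.36 and DESeq2 1.26.0, while the strand setting is not given in the sources used here. The deposited values are a signal, gene counts divided by a size factor per library, for 17738 genes. All of them (100%) were whole multiples of 1 read's worth within 1e-06, so whole reads were recovered. Each listed gene had at least 1 read in every library, so genes absent from any library have no row here.

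Genes that reached 10 in 2 or more of the 8 libraries entered limma 3.58.1 (R 4.3.3) with an intensity trend on log2(value + 1), with 4 group means and two-sided Benjamini-Hochberg p-values over all genes tested. A gene is called at an adjusted p under 0.05. Fold changes on the log2(value + 1) scale understate those of low genes. Only the groups compared entered each fit, because replicates of the Activin A groups were known to differ more. The 2DG responses in E7+NODAL and E7+TGFb or E7+ActivinA were compared in fits of their own 8 libraries. The recovered reads went to edgeR 4.0.16 and DESeq2 1.42.0 as alternatives. In simulated interactions with 16141 genes, the fit recovered 100% of 50 genes at a log2 term of -2 and of 50 at 2. It recovered 94% at -1 and 76% at 1, and called 8 of 15744 unchanged genes. Changed genes had a mean of at least 50, and reads of each gene were drawn independently, without the length trends of the real libraries. These shares therefore do not describe lower genes or false calls that come with such trends.

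Gene positions (GRCh38) and exon lengths are from GENCODE 29, which matched 17317 of the 17738 symbols (97.6%). The length trend is a lowess curve per library against log2 exon length. Promoters are from RefSeq.

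The comparison, the 38 gene lists and the tests were chosen with earlier results of these data known. Named genes are the 12 called terms per direction that are largest, with a group mean of at least 100 and library-by-library responses that do not overlap (8262 genes, 50.8% of those tested, do not overlap). Of these 12, 1 lower gene is not reported here, nor are some list members, which stay in the counts. Up to 3 called members per list and 16 fixed genes are named as well, and any other gene was chosen after its values were seen. Deviations of same-numbered replicates had correlations from -0.40 (E7 with E7+NODAL) to 0.45 (E7 with E7+2DG) over 6 pairs of groups. Only 1 of the 6, E7 with E7+2DG, was over 0.1.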

Additional observations from a re-analysis of the deposited data

Results flagged for a closer look

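Terms that differ between media by the test of the difference itself are listed here with their values. The interaction was called for 3939 genes and the difference of the 2DG response between E7+NODAL and E7+TGFb for 1903.

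Higher terms, largest first, were LEFTY1 at 1.48, the pseudogene SNRPGP10 at 1.46, the noncoding DLEU2 at 1.39, the histone gene HIST1H2AC at 1.36, and the pseudogenes RPL21P16 at 1.34 and HMGB1P10 at 1.32. TMEM266 and MRPL12 both stood at 1.29. The protease CTSK stood at 1.27, MIR222HG at 1.25, the lipoyltransferase LIPT1 at 1.22 and TIMM8B at 1.18. CTSK held 167 and 156 reads in E7, 48.4 and 37.0 in E7+2DG, 180 and 146 in E7+NODAL and 104 and 104 in E7+NODAL+2DG.

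Lower terms were PWAR5 at -2.77, COL6A3 at -2.42, HSPG2 at -2.24, IGSF9B at -2.23, SEMA6A-AS1 at -2.23, LINC00265 at -2.22, NOS1AP at -2.20 and AHNAK2 at -2.0. DDIT4 stood at -1.93, PKD1P6 at -1.91 and ZNF483 at -1.87. SEMA6A-AS1, and DLEU2 among the higher terms, are annotated as antisense to other genes. The strand setting is not known, so their reads cannot be told apart from those of the genes they overlap. PKD1P6 is a near-copy of PKD1. Groups of 2 libraries are too small for a check of single outlying samples.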

How the results depend on the processing

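The count of interaction calls moved from 3939 to 313 with all 16 libraries in 1 fit, to 0 without the trend of variance (5347 at an unadjusted p under 0.05, and 4022 by edgeR and 3378 by DESeq2 on recovered reads) and to 622 with a log2 term of at least 1 required. Leaving out 1 library gave 1877 (without E7+NODAL replicate 2) to 5699 (without E7 replicate 1). For 2DG in E7 the count of 6975 became 1169 at a log2 response of at least 1, and 5077 to 7612 with 1 library left out. For 2DG in E7+NODAL the count of 2555 became 982 with all 16 libraries, 1126 without the trend and 421 at a log2 response of at least 1, and 745 to 3885 with 1 library left out. The difference between the responses in NODAL and TGFb, 1903 genes, became 0 with all 16 libraries (1217 at an unadjusted p under 0.05, limma), 242 in the 12 libraries without Activin A, 4 without the trend, 110 at a log2 difference of at least 1 and 1067 with DESeq2, and 1059 to 2371 with 1 library left out. The difference between NODAL and Activin A became 18 with all 16 libraries, 25 with DESeq2, 8 with the length trend removed and 10 with the length and GC trends removed, and 0 to 3551 with 1 library left out (3551 without E7+ActivinA replicate 2). The cause of these changes was not tested, except that a size requirement narrows the test by construction.

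Signs turned for small terms. With the length and GC trends removed, MT-ND3 had an interaction of -0.036 and a 2DG response in E7 of 0.0076. VEGFA had 0.087 with the length trend removed and 0.19 with both. TDGF1 had -0.051 at the same total, -0.18 after quantile normalisation, -0.16 and -0.23 with the length trend and with both removed, and -0.025 to 0.094 with 1 library left out. SOX2 had -0.034, -0.033, -0.19 and -0.11 in the same 4 settings, and -0.016 to 0.12 with 1 library left out. After quantile normalisation HSPA5 had -0.041 and INHBE 0.18, and INHBE had -0.069 to 0.052 with 1 library left out. Leaving out at least 1 library ended the interaction call of ARRDC4, BAX, DNAJB9, DPM3, DRAP1, FARSB, FST, HARS, HIST2H2AC, HK2, HSPA5, ID2, LIPT1, MIR222HG, MT-ND3, MT-ND5, NANOG, PFKFB4, POLR1A, SDF2L1, SEMA6A-AS1, TERT, TP53I3, VEGFA and VIM among the genes named by rule. With the replicate number as a block (replicate block), 3672 interaction terms were called. Among the named genes, 22 alternative values of the interaction turned sign, 417 lost the threshold, 14 gained it and 2396 kept both.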

Other observations

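Several other lists were measured. Of 20 cytosolic aminoacyl-tRNA synthetases 7 were higher, led by RARS (0.76), HARS (0.47) and FARSB (0.43), and 2 (VARS and AARS) lower, against 11.8% and 12.4% of all genes, and 6 and 2 with the length trend removed. NEUROG3, a proneural factor, was the single called gene of 12 neuroectoderm genes. It stood at 124 and 131 reads in E7, 201 and 219 in E7+2DG, 56.0 and 53.7 in E7+NODAL and 185 and 194 in E7+NODAL+2DG, a term of 1.05, and the list held 1 higher and 0 lower with the length trend removed as well. Of 17 p53 and apoptosis genes BAX (0.53) and TP53I3 (0.67) were higher and 3 lower, shares near the 11.8% and 12.4% of all genes, and with the length trend removed 0 were higher and 2 lower. In the hypoxia list VEGFA (-0.39) and HK2 were lower and 0 of 16 higher, and 1 was lower and 1 higher with the length trend removed. VEGFA rose from 643 and 588 to 2005 and 2009 in E7 and from 605 and 617 to 1568 and 1476 with NODAL, and its term was 0.09 with the length trend removed. Of 8 tested histone genes without poly(A) tails, a sign of how the RNA was selected, 1 was higher (HIST2H2AC, 1.95, at 5.69 to 19.1 reads) and 0 lower, and 0 of either with the length trend removed.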
